A study of Homo sapiens with 12 samples.

Results

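The S100 genes encode small calcium-binding proteins, and 8 of them are described here as they were measured by mRNA-seq in 2 leukemia cell lines incubated with OGP46. The 8 are S100A4, S100A6, S100A8, S100A9, S100A11, S100A12, S100A13 and S100P. They were chosen by their gene symbols among the 20003 genes with a usable symbol, and all 8 symbols were found. NB4 is a line of acute promyelocytic leukemia with the fusion gene PML-RARα. The Kasumi-1 line comes from acute myeloid leukemia of the M2 type and carries t(8;21), which fuses AML1 to ETO. OGP46 is a kaurene diterpenoid made from oridonin. From each line, 3 control samples, given the solvent DMSO, were set against 3 samples given 1 μM OGP46. The labels and the methods give 48 h of incubation, while a figure legend of the study gives a longer time. Each line is a single line, so a difference between the lines cannot be told apart from any batch that went with them. The study's methods state in general that experiments were repeated, and the legend of its sequencing figure speaks of 3 independent experiments. The labels do not say which sequenced samples came from separate cultures. The p-values therefore measure the spread between these samples, part of which may be technical.

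S100 proteins bind calcium through a pair of EF-hand motifs, change shape, and then bind target proteins, mostly as dimers. S100A8 and S100A9 form calprotectin, which is abundant in the cytosol of neutrophils and monocytes, and S100A12 is a further protein of mature neutrophils. S100A4, S100A6, S100A11 and S100P act mainly inside the cell on the cytoskeleton and on annexins, while several S100 proteins that leave the cell bind receptors such as RAGE (AGER) and TLR4. S100A8 and S100A9 transcripts are known to rise as myeloid cells mature.

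In GENCODE release 29, on the hg38 assembly that the processing notes name, 7 of the 8 genes lie in the S100 cluster of chromosome 1, and S100P lies on chromosome 4. S100A9, S100A12 and S100A8 stand next to each other within 33.3 kb, with S100A9 on the plus strand and the others on the minus strand. S100A4 overlaps S100A3 on the same strand, and S100A13 overlaps S100A1 on the opposite strand. The library kit keeps the strand, but the strand setting of the counting was not given in the sources used here, so the values of S100A13 and S100A1 are uncertain to the extent that reads of one could be counted for the other. S100A4 and S100A3 share a strand, so no strand setting could tell their reads apart. How reads of their overlap were counted is unknown.

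The promoters of 4 genes are shown because the 3 neighbours S100A9, S100A12 and S100A8 differed widely in level and because S100P moved with S100A9 and S100A8 in NB4 cells. Each is a RefSeq window of 300 bases on GRCh38.p14, from 250 bases before the transcript start to 50 bases after it, written 5′ to 3′ on the strand of the gene. Capitals mark motif matches on either strand. The TATA box was searched as TATAAA and the PU.1 motif as GAGGAA, which reads TTCCTC on the opposite strand. The letters TTNNGCAA were taken for the C/EBP family. For the transcription factor AP-1 the search used TGANTCA. The antioxidant response element was searched as TGACNNNGC. No match overlapped another in these 4 windows. S100A8 has 3 RefSeq starts, of which the middle one is shown.
S100A9, chr1:153357604-153357903, plus strand: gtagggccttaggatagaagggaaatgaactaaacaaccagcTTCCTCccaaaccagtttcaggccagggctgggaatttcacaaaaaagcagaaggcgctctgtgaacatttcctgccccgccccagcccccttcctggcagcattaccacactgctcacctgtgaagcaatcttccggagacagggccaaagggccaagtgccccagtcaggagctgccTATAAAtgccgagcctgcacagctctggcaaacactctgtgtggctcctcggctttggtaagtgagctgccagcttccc
S100A12, chr1:153375572-153375871, minus strand: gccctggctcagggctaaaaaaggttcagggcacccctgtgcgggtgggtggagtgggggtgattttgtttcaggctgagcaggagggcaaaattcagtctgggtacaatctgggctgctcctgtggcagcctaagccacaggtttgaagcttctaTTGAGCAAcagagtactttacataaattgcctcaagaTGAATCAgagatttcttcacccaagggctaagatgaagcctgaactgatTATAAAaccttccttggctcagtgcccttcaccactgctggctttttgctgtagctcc
S100A8, chr1:153391024-153391323, minus strand: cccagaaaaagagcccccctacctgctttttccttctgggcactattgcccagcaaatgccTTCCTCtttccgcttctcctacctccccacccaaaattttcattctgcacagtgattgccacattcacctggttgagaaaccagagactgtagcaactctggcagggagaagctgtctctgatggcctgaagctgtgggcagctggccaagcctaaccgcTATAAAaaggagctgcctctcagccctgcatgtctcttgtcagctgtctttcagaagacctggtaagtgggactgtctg
S100P, chr4:6693628-6693927, plus strand: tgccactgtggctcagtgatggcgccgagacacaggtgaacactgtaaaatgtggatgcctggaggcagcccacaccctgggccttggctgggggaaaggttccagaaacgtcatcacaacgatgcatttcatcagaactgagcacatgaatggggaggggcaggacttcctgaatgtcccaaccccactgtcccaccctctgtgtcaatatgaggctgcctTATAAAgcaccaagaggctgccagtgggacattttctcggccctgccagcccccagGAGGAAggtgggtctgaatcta

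A TATA box stood 29 bases before the start of S100A9, 29 bases before that of S100A8 and 28 bases before that of S100P. In the S100A12 window it began 8 bases before the start. With all 12 windows of the 8 genes, 6 of the 8 genes held TATAAA, while 11.5% of the 35116 RefSeq promoter windows of this length did. The PU.1 letters were in 3 of the 8 genes (S100A9, S100A8 and S100P), against 27.9% of all windows. The C/EBP letters were in S100A12 and S100A11, against 10.5% of all windows. The AP-1 letters were in S100A12 only (7.71% of all windows), and those of the antioxidant response element only in a window of S100A13 (13.3% of all windows). Genes with several starts had more than 1 window in which a motif could be found. These matches are a description of letters and say nothing about binding.

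The values are FPKM, fragments scaled by exon length and by the mapped fragments of the library, so they can be compared between genes of different length. The files hold no read counts, so the depth behind each value is unknown and no counting interval can be given. The sum over all genes was 248207 to 310262 FPKM in the 12 samples. RUNX1T1, the ETO part of the Kasumi-1 fusion gene, was at 8.52 FPKM on average in Kasumi-1 controls and at most 0.0762 FPKM in NB4 samples. The sum of RUNX1T1, CD34 and KIT was 218 to 254 FPKM in Kasumi-1 controls and 0.155 to 2.61 FPKM in NB4 controls, with the highest NB4 value in control 3. MPO, a granulocyte precursor enzyme, was at 2394 FPKM or more in NB4 controls, but ELANE, another such marker, was at only 0.504 to 14.5 FPKM there. With OGP46, MPO went from a mean of 2896 to 2095 FPKM in NB4 and PRTN3 from 285 to 121. AZU1 went from 62.1 to 40.8, CTSG from 44.7 to 18.6 and ELANE from 6.09 to 0.712. The ELANE controls were at 0.504, 3.30 and 14.5 FPKM, so control 3, with the highest Kasumi-1 marker sum, set most of the control mean. With OGP46 ELANE was at 0.321, 0.430 and 1.39 FPKM. Each of these genes was lower in all 3 same-numbered pairs, in NB4 and also in Kasumi-1. The OGP46 means in Kasumi-1 were 4422, 2118, 743, 91.5 and 1067 FPKM in the order given. The share of all genes lower in every pair was not computed. HGF (8.83 to 9.59) and STAB1 (9.21 to 13.3), listed with them, had means that were not lower in NB4. Means in Kasumi-1 controls were above those in NB4 controls for MPO (5024), PRTN3 (3047), AZU1 (983), CTSG (112), ELANE (1505) and HGF (13.5 FPKM). Only STAB1 had a lower mean there (0.332 FPKM), so the other listed genes do not mark NB4. The part of these levels in the S100 results was not tested. Of the other cell types checked, the keratinocyte markers KRT5 and KRT14 were at 0 in all samples. The T cell marker CD3D was at 13.5 to 20.4 FPKM in NB4 controls and 22.5 to 34.6 FPKM in NB4 OGP46 samples, while CD3E, which accompanies it in T cells, was at most 0.0608 FPKM in NB4 samples. The part of these markers in the results below was not tested.

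S100A11 and S100A4 made up most of the S100 transcripts in both lines. The 8 genes summed to 525 ± 16.01 FPKM (SD, n = 3) in NB4 controls, of which S100A4 and S100A11 gave 88.7% ± 1.88. In Kasumi-1 controls the sum was 189 ± 27.4 FPKM and their share 96.2% ± 0.526. The 8 genes took 0.207% ± 0.00469 of all FPKM in NB4 controls and 0.0645% ± 0.00575 in Kasumi-1 controls. S100A11 ranked 129 and S100A4 ranked 203 from the top among all genes in NB4 controls. S100A12 was at the other end, at or near 0 in every sample.

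**Figure D1:**
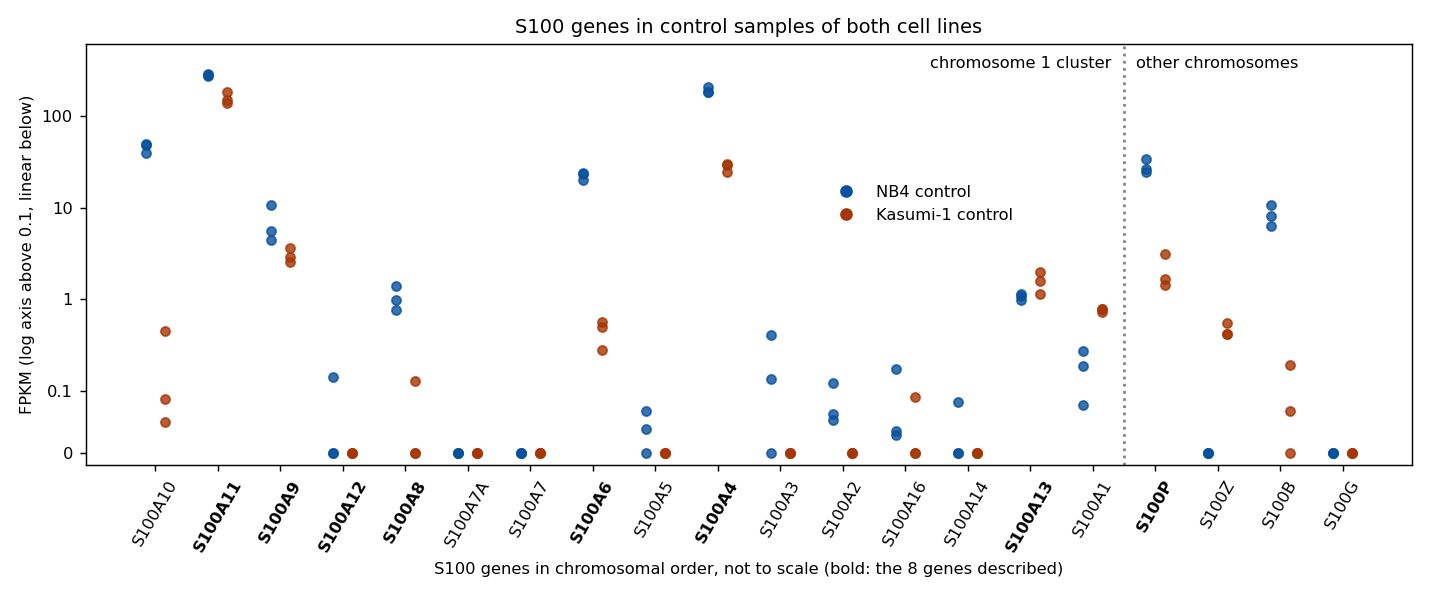
FPKM of 20 S100 genes (vertical axis, log scale above 0.1 and linear below) in the 3 control samples of NB4 (blue) and of Kasumi-1 (brown), each point 1 sample, in chromosomal order; the 8 genes described are in bold. S100A11 and S100A4 were the highest in both lines. In NB4, S100A9 and S100A8 stood above their neighbour S100A12. In Kasumi-1, S100A9 stood above S100A12, which was at 0 in all 3 controls, while S100A8 was also at 0 in controls 1 and 3.

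The first comparison set the untreated lines side by side. A gene was called where limma gave a Benjamini-Hochberg adjusted p below 0.05 over all genes tested and the log2 fold change, taken on the log2(FPKM + 0.1) scale, was at least 0.58 in size (1.49-fold, the threshold of the study). Of the 7 genes that reached a mean of 0.1 FPKM, 6 were called higher in NB4 than in Kasumi-1 and none lower. Over all 12302 genes tested, 22.7% were called higher in NB4 and 29.7% higher in Kasumi-1. The median log2 difference of the 7 genes was 2.77, and that of all genes was −0.10.

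S100A6, which binds annexins and the CacyBP ubiquitin ligase adaptor, differed most. It was at 19.8, 22.9 and 23.6 FPKM in NB4 controls 1, 2 and 3, and at 0.499, 0.574 and 0.285 FPKM in the Kasumi-1 controls. The log2 difference was 5.36 ± 0.20 (SE, limma adjusted p = 6.81e-08). Over the alternative settings its size ran from 3.99 to 5.63. NB4 thus had a moderate level of S100A6, while Kasumi-1 had a trace.

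S100P, a calcium-binding protein that acts on ezrin and can be secreted, was at 26.4, 33.4 and 24.1 FPKM in NB4 controls and at 1.67, 3.12 and 1.43 FPKM in Kasumi-1 controls. Its log2 difference was 3.76 ± 0.25 (SE, limma adjusted p = 1.56e-06). S100A4, which binds nonmuscle myosin and is tied to cell motility, was at 205, 182 and 178 FPKM in NB4 controls and at 28.8, 29.7 and 24.1 FPKM in Kasumi-1 controls. Both genes were separated between the lines with no overlap of samples. The log2 difference of S100A4 was 2.77 ± 0.10 (SE, limma adjusted p = 5.95e-08).

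S100A11, an annexin-binding member with roles in growth control and membrane repair, was high in both lines. It was at 285, 267 and 279 FPKM in NB4 controls and at 147, 180 and 136 FPKM in Kasumi-1 controls, a log2 difference of 0.85 ± 0.10 (SE, limma adjusted p = 7.10e-05). S100A9, the larger calprotectin subunit, was at 4.41, 10.7 and 5.60 FPKM in NB4 controls and at 2.57, 3.60 and 2.89 FPKM in Kasumi-1 controls. The lowest NB4 control lay close above the highest Kasumi-1 control, and the log2 difference was 1.08 ± 0.28 (SE, limma adjusted p = 0.00743).

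S100A8, the smaller calprotectin subunit, was at 0.998, 1.39 and 0.773 FPKM in NB4 controls, while in Kasumi-1 it was listed at 0 in controls 1 and 3 and at 0.131 FPKM in control 2. It was called higher in NB4 (limma adjusted p = 4.54e-05), but the size of the log2 difference ran from 0.97 to 5.42 over the alternative settings, so no fold is given. S100A13, which takes part in the release of FGF1 and IL-1α from the cell, was the exception. It was at 1.16, 1.10 and 0.990 FPKM in NB4 controls and at 1.15, 2.01 and 1.58 FPKM in Kasumi-1 controls, so the groups overlapped. Its log2 difference of −0.48 ± 0.19 (SE, limma adjusted p = 0.0491) was below the fold threshold, and without Kasumi-1 control 1 it was −0.67 (adjusted p = 0.00949) and was called lower in NB4.

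S100A12, a ligand of RAGE, was listed at 0 in NB4 controls 1 and 2 and in all 6 Kasumi-1 samples. It was at 0.144 FPKM in NB4 control 3. With OGP46 it was at 0.136, 0 and 0.141 FPKM in NB4. These values did not pass the filter on low values in any comparison, and none of the 4 groups could be put in an order for this gene.

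The next comparison asked which S100 transcripts differed between OGP46 and control within NB4 cells. S100A8, S100A9, S100P and S100A13 had the largest rises, and S100A4, S100A11 and S100A6 had smaller ones. Without the sample pairing, 0 of the 7 genes tested were called, while 1.45% of the 11750 genes tested were called higher with OGP46. By an unadjusted p below 0.05 with the same fold, 4 of the 7 passed. The labels number the samples 1 to 3 in each group. In NB4, deviations of a control and an OGP46 sample of the same number correlated at r = 0.20 to 0.62 over all genes tested. This was taken to pair them, and correlations between samples of different numbers are not given here. Neither the labels nor the methods state such a pairing. It was read from the same values that the fit uses, so the p-values with the block rest on it. With this pairing in the limma fit as a replicate block, 4 of the 7 were called higher, against 5.06% of all genes, and the fold changes stayed as they were while their errors shrank. The median log2 fold change of the 7 was 0.58, and that of all genes was 0.18. The shift of all genes is itself part of each value, so the effect of setting the median of every sample equal is given below.

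**Figure D2:**
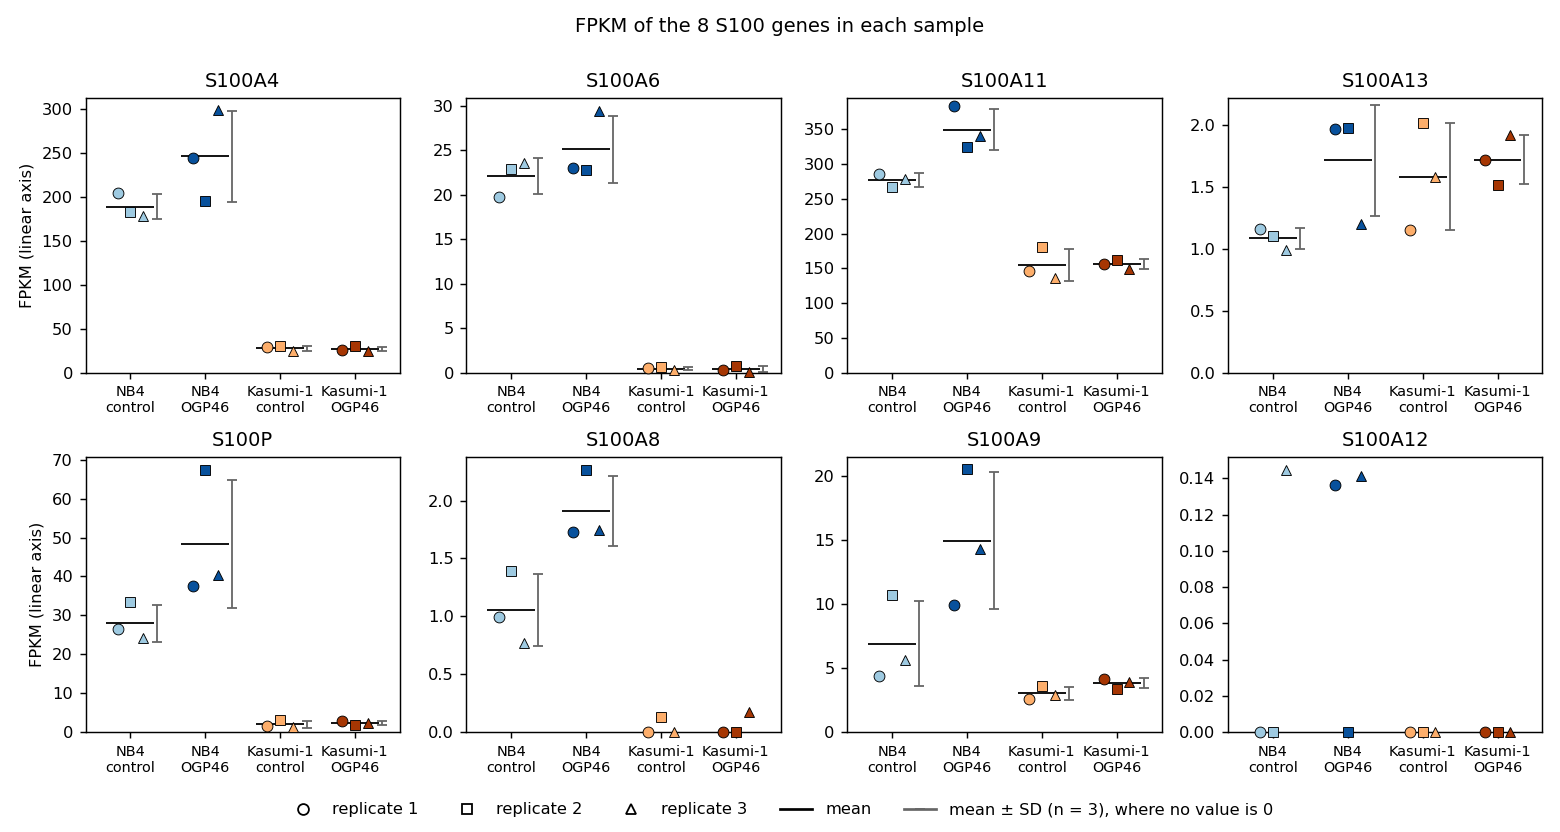
FPKM (vertical axes, linear, a different range in each panel) of the 8 genes in each of the 12 samples, with circles, squares and triangles for replicates 1, 2 and 3, the group mean as a line and mean ± SD (n = 3) as a bar where no sample was at 0. In NB4, the 3 OGP46 samples lay above the 3 controls without overlap for S100A8, S100A11, S100A13 and S100P, and the Kasumi-1 groups overlapped for every gene.

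S100A9 was at 4.41, 10.7 and 5.60 FPKM in NB4 controls 1, 2 and 3 and at 9.92, 20.5 and 14.3 FPKM in the OGP46 samples of the same numbers. Replicate 2 was the highest in both groups, and control 2 lay above OGP46 sample 1, so the groups overlapped although each pair rose. The log2 ratio within the pairs was 1.15, 0.94 and 1.34. The fitted log2 fold change was 1.14 ± 0.34 (SE, limma adjusted p = 0.0898) without the block, and with the block its SE was 0.10 and its adjusted p 3.83e-05. The fitted rise was 2.21-fold on the log2(FPKM + 0.1) scale, and the group means were 6.90 ± 3.33 and 14.9 ± 5.34 FPKM (SD, n = 3).

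S100A8 was at 0.998, 1.39 and 0.773 FPKM in controls and at 1.73, 2.26 and 1.75 FPKM with OGP46. All 3 OGP46 samples lay above all 3 controls, and replicate 2 was again the highest of both groups. The log2 fold change was 0.83 ± 0.21 (SE, limma adjusted p = 0.0712), and with the block the SE was 0.14 and the adjusted p 0.00215. At about 1 to 2 FPKM, S100A8 remained well below S100A9. The ratio of S100A8 to S100A9 was 0.165 ± 0.0534 (SD, n = 3) in controls and 0.135 ± 0.0340 with OGP46. On the log2 scale the ratio differed by −0.32, which did not pass a two-sided exact permutation test (p = 0.4), in a design whose smallest possible p is 0.10. Within the 3 pairs the ratio was lower with OGP46 each time, by log2 differences of −0.42, −0.27 and −0.25. A two-sided exact paired permutation test gave p = 0.25, the smallest that 3 pairs allow.

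S100P was at 26.4, 33.4 and 24.1 FPKM in controls and at 37.4, 67.3 and 40.3 FPKM with OGP46. The groups did not overlap, and OGP46 sample 2 stood well above the other two. The log2 fold change was 0.75 ± 0.22 (SE, limma adjusted p = 0.0851), and with the block the SE was 0.10 and the adjusted p 5.86e-04. Its fitted rise was 1.68-fold, and it stood at rank 1537 among all genes in controls and at rank 967 with OGP46. Without OGP46 sample 2 the log2 fold change was 0.49 (adjusted p = 0.0710), under the fold threshold.

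S100A13 was at 1.16, 1.10 and 0.990 FPKM in controls and at 1.97, 1.97 and 1.20 FPKM with OGP46. OGP46 sample 3 lay just above the controls and the other two well above them. The log2 fold change of 0.58 ± 0.20 (SE, limma adjusted p = 0.113) was only just past the fold threshold, and with the block the SE was 0.15 and the adjusted p 0.0168. It was the called gene nearest to the threshold.

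S100A11 was at 285, 267 and 279 FPKM in controls and at 383, 325 and 341 FPKM with OGP46, with no overlap between the groups. The log2 fold change was 0.33 ± 0.08 (SE, limma adjusted p = 0.0683; 0.00935 with the block), under the fold threshold in every setting tried. In FPKM this was the largest difference of the 8 genes, as the mean went from 277 ± 9.57 to 350 ± 29.9 (SD, n = 3). S100A11 has processed pseudogenes elsewhere in the genome, and reads shared with them may have been counted for either.

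S100A4 was at 205, 182 and 178 FPKM in controls and at 244, 195 and 299 FPKM with OGP46. OGP46 sample 2 lay below control 1, so the groups overlapped. The log2 fold change was 0.37 ± 0.14 (SE, limma adjusted p = 0.143; 0.0313 with the block), under the fold threshold. S100A6 was at 19.8, 22.9 and 23.6 FPKM in controls and at 23.1, 22.8 and 29.5 FPKM with OGP46, and pair 2 did not rise. Its log2 fold change was 0.18 ± 0.12 (SE, limma adjusted p = 0.342; 0.160 with the block), with a 95% interval of −0.10 to 0.45.

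**Figure D3:**
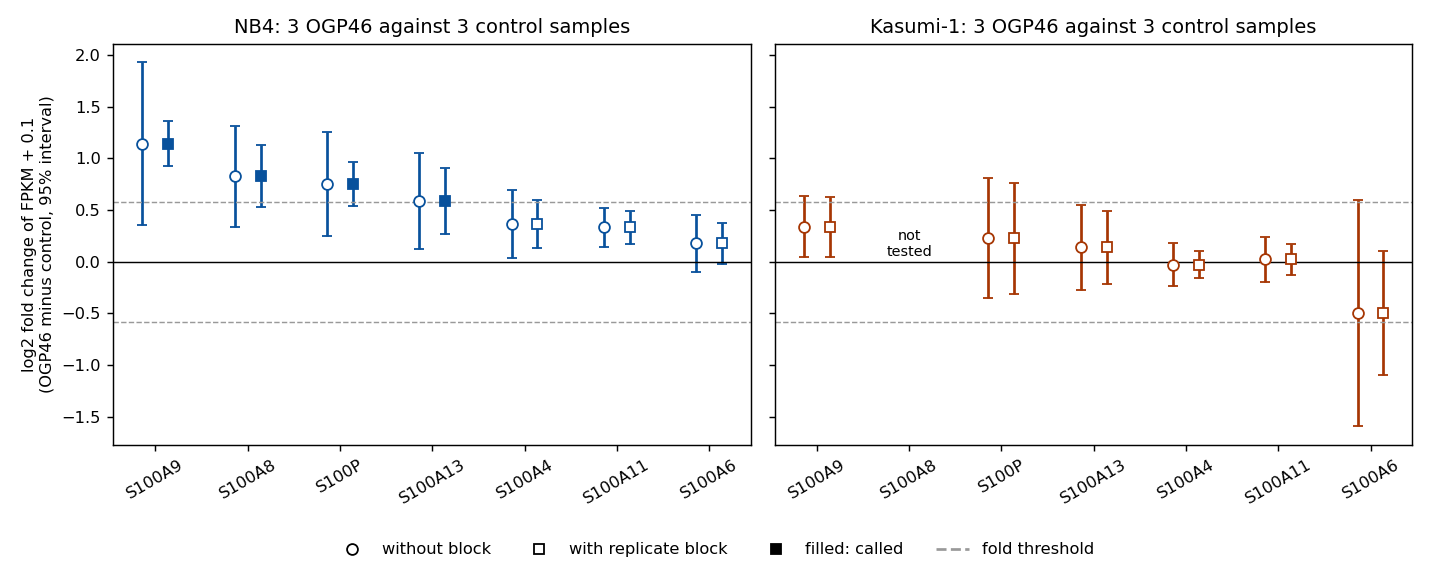
Log2 fold change of FPKM + 0.1 (vertical axis, OGP46 minus control) of each gene with its 95% interval from limma, without the replicate block (circles) and with it (squares), in NB4 (left) and Kasumi-1 (right); filled symbols were called and dashed lines mark the fold threshold of 0.58. In NB4 the block narrowed the interval of S100A9 most, and S100A9, S100A8, S100P and S100A13 were called with it. In Kasumi-1 no gene was called, and S100A8 was not tested there.

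Seen by single samples, 4 of the 7 genes tested had all OGP46 samples above all controls in NB4, against 32.7% of all genes, and 6 of 7 rose in all 3 pairs, against 52.9% of all genes. So a rise in every pair was common in these libraries. The sum of the 8 genes was 513 to 543 FPKM in controls and 636 to 726 FPKM with OGP46, and S100A4 and S100A11 still gave 86.4% ± 3.98 (SD, n = 3) of it.

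When the median of all genes was set equal between samples, the median of all genes moved from 0.18 to −0.04, and the S100 values fell by a like amount. With the block and this centring, S100A9 (0.92, adjusted p = 0.00201) and S100A8 (0.61, adjusted p = 0.0184) were still called, while 1.6% of all genes were called higher. S100P had 0.53 (adjusted p = 0.0114) and S100A13 had 0.36, both then under the fold threshold, and S100A6 turned to −0.04. With the block and each sample scaled to the same sum of FPKM, S100A9, S100A8 and S100P were called, against 2.63% of all genes. In a joint model of the 12 samples without the block, S100A9 alone was called (adjusted p = 0.0232), against 3.48% of all genes. NB4 control 3, which had the highest Kasumi-1 marker sum among NB4 controls, was left out in 1 alternative, and the log2 fold changes were then 1.04 for S100A9, 0.64 for S100A8, 0.65 for S100P and 0.53 for S100A13.

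The third comparison asked the same within Kasumi-1 cells. No S100 gene was called, with or without the block. Of the 6 genes tested, 0 were called by limma and 0 passed by an unadjusted p below 0.05 with the same fold. Over all 11835 genes tested, 0.0338% were called in either direction, and 0.617% with the block. The ranges of control and OGP46 samples overlapped for each of the 6, while they did not overlap, in either direction, for 22.6% of all genes, and none of the 6 rose in all 3 pairs, against 31.7% of all genes. The median log2 fold change of the 6 was 0.08, and that of all genes was 0.05.

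S100A9 came closest, at 2.57, 3.60 and 2.89 FPKM in Kasumi-1 controls and at 4.16, 3.37 and 3.93 FPKM with OGP46. Its log2 fold change was 0.34 ± 0.13 (SE, limma adjusted p = 0.267), with a 95% interval of 0.04 to 0.63. S100P was at 1.67, 3.12 and 1.43 FPKM in controls and at 2.88, 1.81 and 2.33 FPKM with OGP46. Pairs 1 and 3 rose by 0.75 and 0.67 on the log2 scale and pair 2 fell by 0.75, so the fitted value was 0.22 ± 0.26 (SE, limma adjusted p = 0.705).

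For the abundant members the intervals left little room for a change of the threshold size. S100A11 was at 147, 180 and 136 FPKM in controls and at 157, 163 and 149 FPKM with OGP46. Its log2 fold change was 0.02 with a 95% interval of −0.19 to 0.24. S100A4 was at 28.8, 29.7 and 24.1 FPKM in controls and at 26.2, 29.8 and 24.8 FPKM with OGP46. The log2 fold change was −0.03 with an interval of −0.24 to 0.18. Both intervals ended short of 0.58 in either direction.

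For S100A6 and S100A13 the intervals were wide. S100A6 was at 0.302, 0.729 and 0.0659 FPKM with OGP46, and its log2 fold change was −0.50 with a 95% interval of −1.59 to 0.60. S100A13 was at 1.72, 1.52 and 1.91 FPKM with OGP46, and its log2 fold change was 0.14 with an interval of −0.27 to 0.55. S100A8 was listed at 0 in 4 of the 6 Kasumi-1 samples and at 0.174 FPKM in OGP46 sample 3, and it did not pass the filter.

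**Figure D4:**
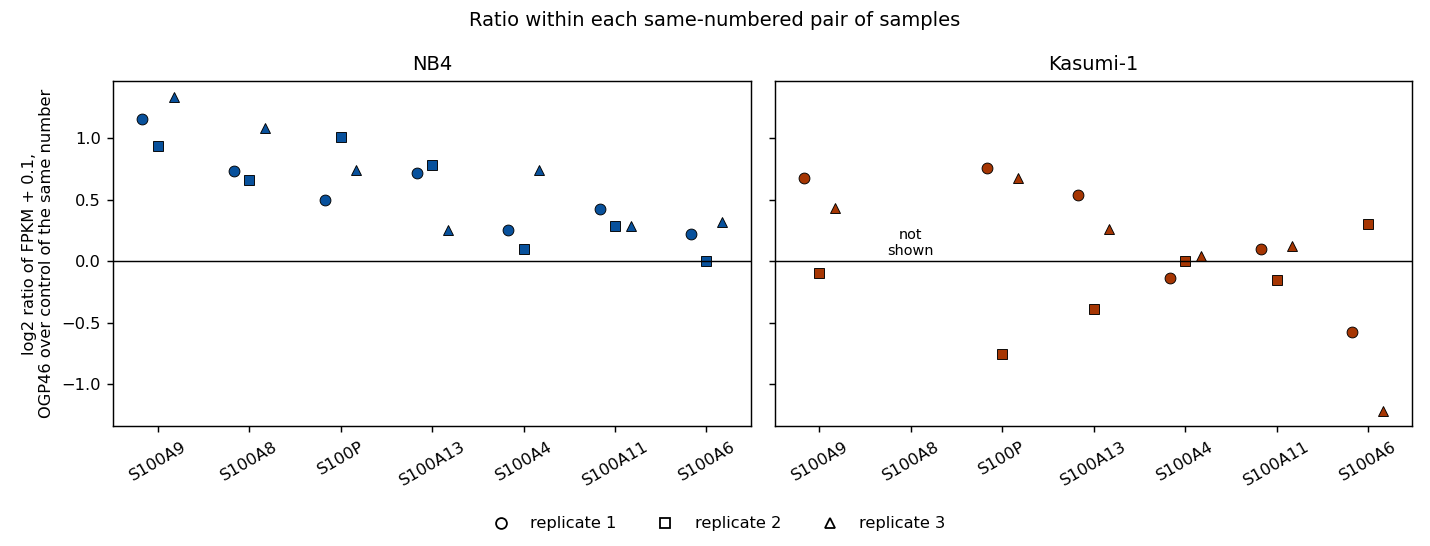
Log2 ratio of FPKM + 0.1 in each OGP46 sample over the control of the same number (vertical axis), by gene and replicate, in NB4 (left) and Kasumi-1 (right). In NB4, S100A9 lay between 0.94 and 1.34 in the 3 pairs, and in Kasumi-1 pair 2 lay below 0 for S100A9, S100P, S100A13 and S100A11 while pairs 1 and 3 lay above it. S100A8 is not shown for Kasumi-1, where 4 of 6 samples were at 0.

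Kasumi-1 control 2 was the highest of the 3 Kasumi-1 controls for all 7 S100 genes above 0 there. It was also the highest of them for S100A10, ANXA1, ANXA2, ANXA6, ANXA11, CACYBP, SUGT1, EZR, PPP5C, STUB1 and S100PBP, though not for MYH9 or IQGAP1. Among the marker genes given above it was highest for MPO, PRTN3, AZU1, CTSG, ELANE, STAB1 and CD3E. For HGF, CD34, KIT, RUNX1T1 and CD3D another control was highest. Being highest in this sample was thus not particular to the S100 genes. This sample had the largest sum over all genes too, 310262 FPKM against 286839 and 279879 FPKM in controls 1 and 3. The share of all genes that were highest in this sample was not computed. S100A10 was at 0.451 FPKM in it and at 0.0880 and 0.0497 FPKM in the other controls, and ANXA1 was at 2.27 FPKM in it and at 1.33 and 1.08 FPKM in the others. The 0.451 FPKM of S100A10 was 0.996% of the NB4 control mean, whereas the 3.12 FPKM of S100P was 11.1% of it. The part of this sample in the Kasumi-1 result was not tested beyond leaving it out. Without it no S100 gene was called, and the log2 fold changes were 0.55 for S100P, 0.47 for S100A9, 0.32 for S100A13 and 0.14 for S100A11.

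The values within NB4 and within Kasumi-1 do not by themselves show that the lines differed in their response, so the difference was tested as an interaction over all 12 samples. None of the 7 S100 genes tested was called, without or with the block. Without the block 0% of the 12309 genes tested were called, and with it 1.4% were called larger in NB4. All 7 differences were positive, with a median of 0.53 against 0.12 over all genes. S100A9 had the largest, 0.80 ± 0.42 (SE, limma adjusted p = 0.494), with a 95% interval of −0.10 to 1.71. With the block its SE was 0.19 and its adjusted p 0.0680. A larger response of S100A9 in NB4 than in Kasumi-1 was therefore not shown at the threshold used, nor was an equal one.

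Across the 4 groups, S100A8, S100A9, S100A11 and S100P had 1 order of means, with NB4 OGP46 first, NB4 control next, then Kasumi-1 OGP46 and Kasumi-1 control. The ranges of samples overlapped between the Kasumi-1 groups for each of these genes, and between the NB4 groups for S100A9. S100A4 and S100A6 had Kasumi-1 control before Kasumi-1 OGP46, and their ranges overlapped between treatments within each line. For S100A13, each group overlapped its neighbour in the order, from 1.72 ± 0.198 FPKM in Kasumi-1 OGP46 to 1.08 ± 0.0849 FPKM (SD, n = 3) in NB4 control.

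After the mean of the cell line was taken off each log2 value, S100A9 and S100P ran most alike among the 8, with Pearson r = 0.84 over the 12 samples. The lowest r was −0.33, between S100A6 and S100A8, and S100A8 and S100A9 had 0.65. S100A8 was at 0 in 4 of the 6 Kasumi-1 samples, so its r values depend on the pseudocount and on single traces there. These 12 points share libraries, scaling and treatment, so the values are descriptive. Among 9942 other genes that averaged 1 FPKM or more, DIDO1 (r = 0.97) and DEF6 (0.96) ran most like S100A9, and NAXD (0.95) and SAP30BP (0.94) most like S100P. For S100A11 they were PSMC4 (0.98) and TMEM116 (0.97), for S100A4 DPY30 (0.96) and VPS29 (0.95), and for S100A13 PSPH (0.93) and LAT (0.90). S100A6 had ZNF830 (0.90) and TBC1D22A (0.87). For the sparse S100A8 and S100A12, POC1A (0.96) with TOP3A (0.95), and ANKRA2 (0.89) with GALC (0.88), came first.

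The other S100 genes were mostly silent. Of 12 further members of the family, 4 passed the filter in NB4 and 3 in Kasumi-1. S100A10, the annexin A2 partner, was at 47.7, 38.9 and 49.2 FPKM in NB4 controls and at 0.0880, 0.451 and 0.0497 FPKM in Kasumi-1 controls. S100B, best known from glia, was at 10.6, 8.18 and 6.33 FPKM in NB4 controls and at 0.0689, 0.192 and 0 FPKM in Kasumi-1 controls. Both were called higher in NB4, with log2 differences of 7.50 ± 0.41 (SE, limma adjusted p = 4.56e-07) and 5.61 ± 0.36 (adjusted p = 1.12e-06). S100A1 (−1.70, limma adjusted p = 3.45e-04) and S100Z (adjusted p = 3.94e-06) were called higher in Kasumi-1, where S100A1 was at 0.724 to 0.794 FPKM and S100Z at 0.422 to 0.552 FPKM, while S100Z was at 0 in all NB4 controls and is given no fold. The sizes of these low-level differences moved with the pseudocount. Over the alternative settings S100A10 ran from 5.28 to 8.34, S100B from 3.09 to 7.24, S100A1 from −2.19 to −0.59 and S100Z from −5.56 to −0.55, the last with a pseudocount of 1 and under the fold threshold.

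With OGP46, none of the 12 further members, of which 4 were tested, was called in NB4 with or without the block. The shares of all genes called higher were 1.45% without it and 5.06% with it. S100A10 had the largest value there, 0.45 ± 0.14 (SE, limma adjusted p = 0.0950; 0.00271 with the block), under the fold threshold. Without NB4 OGP46 sample 2 it was 0.59 (adjusted p = 0.0347) and was called. In Kasumi-1, S100A1, a calcium sensor of muscle cells, was at 0.794, 0.724 and 0.788 FPKM in controls and at 0.244, 0.398 and 0.211 FPKM with OGP46. The groups did not overlap. It had a log2 fold change of −1.20 ± 0.21 (SE, limma adjusted p = 0.0611), and with the block the adjusted p was 0.0164 and it was called, against 0.346% of all genes called lower. With a pseudocount of 1 the log2 fold change was −0.46, under the fold threshold. All of these values were below 1 FPKM, and the opposite-strand neighbour S100A13 did not fall.

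Receptors that bind S100 proteins outside the cell were listed as AGER, TLR4, LY96, BSG, CD33, CD36, CD69 and ALCAM. In NB4, 7 of the 8 were tested, none was called without the block, and 2 were called higher with it, against 5.06% of all genes. LY96, the TLR4 co-receptor, was at 0.272, 0 and 0.276 FPKM in controls and at 0.493, 0.334 and 0.409 FPKM with OGP46 (log2 fold change 1.08, limma adjusted p = 0.185; 0.0306 with the block). CD36, a scavenger receptor, was at 1.07, 0.488 and 0.688 FPKM in controls and at 2.31, 0.527 and 1.90 FPKM with OGP46 (0.83, adjusted p = 0.281; 0.0180 with the block). Without NB4 OGP46 sample 2, which had the lowest CD36 of that group, CD36 was called without the block (1.43, adjusted p = 0.0329). Leaving out another sample took CD36 as low as 0.46 (without OGP46 sample 1) and LY96 as low as 0.44 (without control 2), both under the fold threshold. Neither was called when the block went with median centring (adjusted p = 0.149 and 0.121). TLR4 itself went from 4.43 ± 0.675 to 6.48 ± 0.785 FPKM (SD, n = 3), a log2 fold change of 0.54 (limma adjusted p = 0.0712; 0.00291 with the block) just under the fold threshold. The median of the 7 was 0.30 against 0.18 over all genes.

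In Kasumi-1, 6 of the 8 receptors were tested and none was called in any direction, with or without the block. Of all genes, 0.0338% were called there in either direction, and 0.617% with the block. TLR4 had the largest value, 0.54 (limma adjusted p = 0.126; 0.0376 with the block). Between the control groups, TLR4 (1.78, limma adjusted p = 4.45e-06) and CD36 (adjusted p = 1.34e-05) were called higher in NB4. The shares of all genes called were 22.7% higher in NB4 and 29.7% higher in Kasumi-1. No fold is given for CD36, which was listed at 0 in 2 of the 3 Kasumi-1 controls and whose log2 difference ran from 0.78 to 5.51 over the alternative settings. BSG (−1.10, adjusted p = 1.72e-05) and CD69 (−6.93, adjusted p = 5.43e-08) were called higher in Kasumi-1, where CD69, an S100A8/A9-binding lymphocyte activation antigen, was at 13.7 to 19.3 FPKM. AGER, the receptor most often named for S100 proteins, was at 1.25 to 1.96 FPKM in NB4 controls and at 1.29 to 1.61 FPKM in Kasumi-1 controls.

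The intracellular partners were 14 genes, among them annexins, nonmuscle myosin MYH9 (bound by S100A4), ezrin EZR (bound by S100P) and IQGAP1. Of the 12 tested in NB4, none was called with or without the block. Of all genes, 1.45% were called higher without it and 5.06% with it. All 12 partner values were positive, with a median of 0.28 against 0.18 over all genes. With median centring only 7 of the 12 were positive. EZR (0.43, limma adjusted p = 0.0335) and MYH9 (0.32, adjusted p = 0.0450) passed the adjusted p but not the fold, and IQGAP1 had the largest value (0.50, adjusted p = 0.0730; 0.00185 with the block). Without NB4 OGP46 sample 2, IQGAP1 was called (0.62, adjusted p = 0.0328). In Kasumi-1 none of the 12 tested was called, against 0.0338% of all genes. The largest value was 0.27 for S100PBP (limma adjusted p = 0.268).

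Between the control groups, 5 of 12 partners tested were called higher in NB4 and 2 higher in Kasumi-1, against 22.7% and 29.7% of all genes. With each sample scaled to the same sum of FPKM the counts were 6 and 1, as ANXA2 was gained (0.59) and ANXA11 was lost (−0.56). ANXA1, the annexin bound by S100A11, had the largest log2 difference, 3.95 ± 0.24 (SE, limma adjusted p = 7.93e-07), and was at 24.7 ± 4.22 FPKM in NB4 and 1.56 ± 0.627 FPKM in Kasumi-1 (SD, n = 3). EZR (1.30, adjusted p = 7.42e-07), the phosphatase PPP5C (1.13, adjusted p = 2.08e-06), IQGAP1 (0.71, adjusted p = 2.03e-04) and MYH9 (0.62, adjusted p = 4.01e-05; 0.57 and not called without Kasumi-1 control 1) were the others higher in NB4. ANXA6 (−0.94, adjusted p = 1.57e-05) and ANXA11 (−0.77, adjusted p = 4.63e-04) were higher in Kasumi-1. ANXA2, which joins S100A10 in a tetramer, was at 26.0 ± 6.91 FPKM in NB4 controls and 19.3 ± 1.17 FPKM in Kasumi-1 controls, while S100A10 itself was near 0 in Kasumi-1. Genes of mature neutrophils and monocytes (CSF3R, FCGR3B, CXCR2, CD14, LYZ and VCAN) summed to 277 to 396 FPKM in NB4 controls and to 272 to 374 FPKM with OGP46, mostly from LYZ (mean 318 and 314 FPKM), and FCGR3B was at 0 in both groups. CSF3R had means of 5.01 and 6.30 FPKM, CXCR2 of 0.651 and 0.597 FPKM, and VCAN was at most 0.0111 FPKM. Kasumi-1 controls had higher means of CSF3R (92.5 FPKM) and CXCR2 (1.21 FPKM) than NB4 controls but a lower mean of LYZ (40.5 FPKM). CD14 was at 0.260, 0.0622 and 0.120 FPKM in NB4 controls and at 1.13, 0.342 and 0.655 FPKM with OGP46. Whether these markers moved with S100A8 and S100A9 for a shared reason was not tested.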

How the data were processed

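The 12 samples were mRNA-seq libraries made with oligo(dT) and a stranded kit. The authors deposited 1 FPKM value per gene symbol and sample. The submitters' processing notes name Trimmomatic, HISAT2, Cufflinks, HTSeq and the hg38 build without versions or roles, and the annotation and strand setting are not given in the sources used here. In 27 cases a spreadsheet had changed the symbol to a date, and these were dropped, leaving 20003 genes. The labels gave each sample its cell line and treatment.

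From the deposited FPKM, log2(FPKM + 0.1) was computed and fitted with limma 3.58.1 (R 4.3.3) over all genes that averaged 0.1 FPKM or more across the samples compared, with a mean-variance trend. Fold changes are on this scale and understate the change of low genes. Below about 1 FPKM their size depends on the pseudocount. P-values were Benjamini-Hochberg adjusted over all genes tested. The script was tested on simulated data. The deviations of same-numbered control and OGP46 samples correlated at r = 0.20 to 0.62 in NB4 and 0.16 to 0.40 in Kasumi-1 over all genes tested, above 0.1 for every pair, so the numbers were taken to pair the samples. This pairing comes from the data, since neither the labels nor the methods state one. Correlations between samples of different numbers are not given here. The log2 ratio of S100A8 to S100A9 was compared by an exact permutation test and, as an addition after seeing the data, by an exact paired one. Alternatives were other pseudocounts, filters, scalings, moderation, a joint model, the replicate block and leaving out each sample. The depth is unknown, so 3 samples per group limit the precision. Named were all 8 members and, from lists of other S100 genes, receptors and partners, each gene called and the gene with the largest value per list and comparison, as well as the 2 genes most like each member. The members and lists were chosen with earlier results of these data known. MPO, PRTN3, AZU1, CTSG, ELANE, CD14, TLR4 in NB4, AGER, ANXA2 and Kasumi-1 control 2 were singled out after their values were seen.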

Additional observations from a re-analysis of the deposited data

Results flagged for a closer look

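The difference in the OGP46 response of S100A1 between NB4 and Kasumi-1 passed the test of the difference itself with the replicate block. It was 1.58 on the log2 scale (limma adjusted p = 0.0209; 0.216 without the block). S100A1 went from 0.181 ± 0.0992 to 0.262 ± 0.123 FPKM (SD, n = 3) in NB4 and from 0.768 ± 0.0387 to 0.284 ± 0.0993 FPKM in Kasumi-1. It was higher in all 3 same-numbered pairs in NB4 and lower in all 3 in Kasumi-1. With the block and median centring the difference was 1.43 (adjusted p = 0.0551) and with the block and TPM scaling 1.47 (adjusted p = 0.0512), and neither passed. Over the alternative settings the difference ran from 0.56, with a pseudocount of 1, to 2.03. S100A1 overlaps S100A13 on the opposite strand and all its values were below 1 FPKM. The cause was not tested.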

How the results depend on the processing

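The NB4 result depended on the replicate block. Without it 0 of the 7 S100 genes tested were called, with the replicate block 4, with the block and median centring 2, with the block and TPM scaling 3 (a setting chosen after seeing the data), and in the joint model of 12 samples 1. The counts of called genes among all genes moved as well, from 183 to 730 with the block, to 391 with the block and median centring and to 0 with median centring alone. In Kasumi-1 and in the difference between the lines the block changed the call of no S100 gene among the 8. Between the control lines, 6 were called in the joint model and under both scalings, and 6 or 7 when 1 sample was left out. Leaving out 1 sample kept the NB4 count at 0 in all 6 cases, where S100A9 ran from 0.88 to 1.50, S100A8 from 0.64 to 1.03, S100P from 0.49 to 0.91 and S100A13 from 0.47 to 0.81. Between the control lines, calls gained by leaving out 1 sample were S100A3 (1.80) without NB4 control 3, ANXA2 (0.61; also called under TPM scaling) and LY96 (1.29) without NB4 control 2, S100PBP (−0.59) without Kasumi-1 control 3, and S100A13 as given above. The direction reversed under median centring, alone or with the block, for S100A6 in NB4 (−0.042) and S100A11 in Kasumi-1 (−0.042). When 1 sample was left out in Kasumi-1, S100A4 ran from −0.12 to 0.029, S100A6 from −1.06 to 0.10, S100A11 from −0.060 to 0.14, S100A13 from −0.057 to 0.32, and the log2 ratio of S100A8 to S100A9 from −0.72 to 0.049. The replicate block kept the mean log2 ratio of S100A8 to S100A9 at −0.32 in NB4. The cause was not tested. With no counts, depth and its limits are unknown, and S100A8 in Kasumi-1 and S100A12 in both lines were too low to test.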
